A study of Mus musculus with 6 samples.

Results

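Collagens are the triple-helical proteins of the extracellular matrix. A gene was taken as a collagen gene if the probe accession on the array led to a symbol made of Col, a number, a and a number, pseudogenes excepted. The array held 43 such genes among 20659 named genes, and 29 of the 43 could be tested, of 14264 genes tested in all. The cells were C2C12, an established mouse myoblast line that fuses into myotubes when induced to differentiate. In 3 samples (si-lncMGPF) they had been transfected with an siRNA that targets lncMGPF, a long noncoding RNA, and in 3 samples (si-NC) with the control siRNA. The cells of all 6 samples had differentiated for 2 days, and their total RNA was hybridised to arrays with a single dye. The design asks which genes change with the knockdown. No tested accession was matched to lncMGPF, so the depth of the knockdown was not checked here.

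Each collagen molecule is built from chains that are hydroxylated, glycosylated and folded in the endoplasmic reticulum, trimmed outside the cell and crosslinked by lysyl oxidases. Fibrillar collagens form the fibrils of tendon, bone and the connective tissue of muscle. Type IV collagen forms the network of basement membranes, which wraps every muscle fibre, and FACIT collagens (fibril-associated collagens with interrupted triple helices) decorate the surface of fibrils. A last, mixed class holds the type VI microfibrils that tie muscle fibres to their basement membrane, the anchoring fibrils, the short-chain network collagens and the collagens that span the cell membrane.

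The 75th percentile of the processed signal was 492.1 to 923 intensity units on the si-lncMGPF arrays, against 688.2 to 930.7 on the si-NC arrays. The scan identifiers placed 4 arrays on slide 1, namely si-lncMGPF replicate 1 and all 3 si-NC replicates, and si-lncMGPF replicates 2 and 3 on slide 2. Negative control spots read 37.29 and 42.49 units on slide 2, against 20.1 to 21.82 on slide 1. Most of the knockdown group thus shared a slide that held no control array, and for those 2 arrays slide and siRNA cannot be told apart. Muscle cell markers were tested for 10 of 10 genes, with 0 past the threshold and 1 below an unadjusted p of 0.05, the perinatal myosin gene Myh8 (log2 change -0.69, adjusted p = 0.238). Myh8, Myh3 (-0.15) and Cdh15 (-0.15) lay lower on every si-lncMGPF array than on every si-NC array, as did 12.6% of all tested genes. Within slide 1 their differences were -0.25, -0.09 and -0.05. For the other muscle markers the groups overlapped, with Acta1 at -0.30, Tnnt3 at -0.26, Mymk at 0.17, Ckm at 0.13, Myog at 0.09, Myod1 at 0.06 and Des at 0.04. The muscle markers' summed normalised signal was 83.1 to 106 times the array's 75th percentile on si-lncMGPF arrays, against 100 to 106 on si-NC arrays. Of the fibroblast markers other than collagens 8 of 10 were tested, with a summed signal of 60.8 to 65.9 on si-lncMGPF arrays, against 68.1 to 70.3 on si-NC arrays. Tcf21, a transcription factor of fibroblasts, was well above background on no array. The bone and cartilage markers Sp7, Ibsp and Comp and the endothelial marker Cdh5 were also well above background on no array. The tested markers of bone and cartilage (3 of 8) summed to 3.48 to 3.54 in si-lncMGPF, against 3.33 to 3.45 in si-NC. Those of endothelial cells and leukocytes (4 of 6) summed to 1.6 to 1.74 in si-lncMGPF, against 1.36 to 1.76 in si-NC. Their log2 changes were 0.66 for Pecam1 (-0.04 within slide 1), 0.14 for Adgre1, -0.12 for Kdr and -0.13 for Ptprc, with 0 past the threshold.

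None of the 29 tested collagen genes passed the threshold of an adjusted p below 0.05 between si-lncMGPF and si-NC cells (limma, Benjamini-Hochberg over all tested probes). The smallest adjusted p was 0.213 on the probe with the highest signal of each gene, and 0.141 on a second probe of Col14a1. Over all tested genes 0.147% passed, 6 higher (0.0421%) and 15 lower (0.105%) in si-lncMGPF. At an unadjusted p below 0.05 there were 5 collagen genes, or 17.2%, against 14.2% of all genes. On the probe with the highest signal, Col17a1 was on the higher side (all genes 6.04%) and Col5a2, Col8a1, Col26a1 and Col4a6 were on the lower side (all genes 8.14%). Col26a1 was well above background on 1 si-lncMGPF array and reached the test through the si-NC arrays alone, a route that favours genes lower in si-lncMGPF, and a second probe of Col4a6 went the other way. On the probe with the highest signal of each gene, the collagen share lay near that of the array as a whole. Counted by probe, 9 of 36 collagen probes had an unadjusted p below 0.05, against 15.8% of all probes. In bulk RNA, fewer cells of a type and less RNA per cell cannot be told apart, and this holds for every value here. The labels do not say whether the replicates were separate cultures, so each p-value reflects only the variation among these samples, part or all of which may be technical.

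Of the 29 collagen genes 15 had a positive and 14 a negative log2 change, against 54% positive over all tested genes. Their median log2 change was 0.043, with a range from -0.78 for Col8a1 to 0.65 for Col11a2, and the median of all tested genes was 0.02. The standard error of a collagen gene's change had a median of 0.15, with a range from 0.09 to 0.41, against a median of 0.12 over all tested genes. The si-lncMGPF and si-NC arrays did not overlap for 8 collagen genes (27.6%, against 22.3% of all genes). On the probes used here, 4 of them were higher in si-lncMGPF (all genes 9.62%), namely Col17a1, Col6a3, Col18a1 and Col14a1. The other 4 were lower (all genes 12.6%), namely Col5a2, Col8a1, Col26a1 and Col4a6. For Col14a1 and Col4a6 another probe lay apart in the opposite direction, as given below. Without si-lncMGPF replicate 1 limma called 5 collagen genes (Col8a1, Col17a1, Col4a4, Col7a1 and Col5a2), where 14.8% of all genes passed, and there slide and siRNA coincide. Col4a4 then had a change of 0.51 (adjusted p = 0.0284, over the alternatives 0.005 to 0.894) and Col7a1 of 0.34 (adjusted p = 0.0346, over the alternatives 0.00329 to 0.896). The low ends of these spans came from the fit with array weights. With array weights, which set si-lncMGPF replicate 1 at 0.109 and si-NC replicate 3 at 9.98, 16 collagen genes passed, against 52.2% of all genes.

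**Figure D1:**
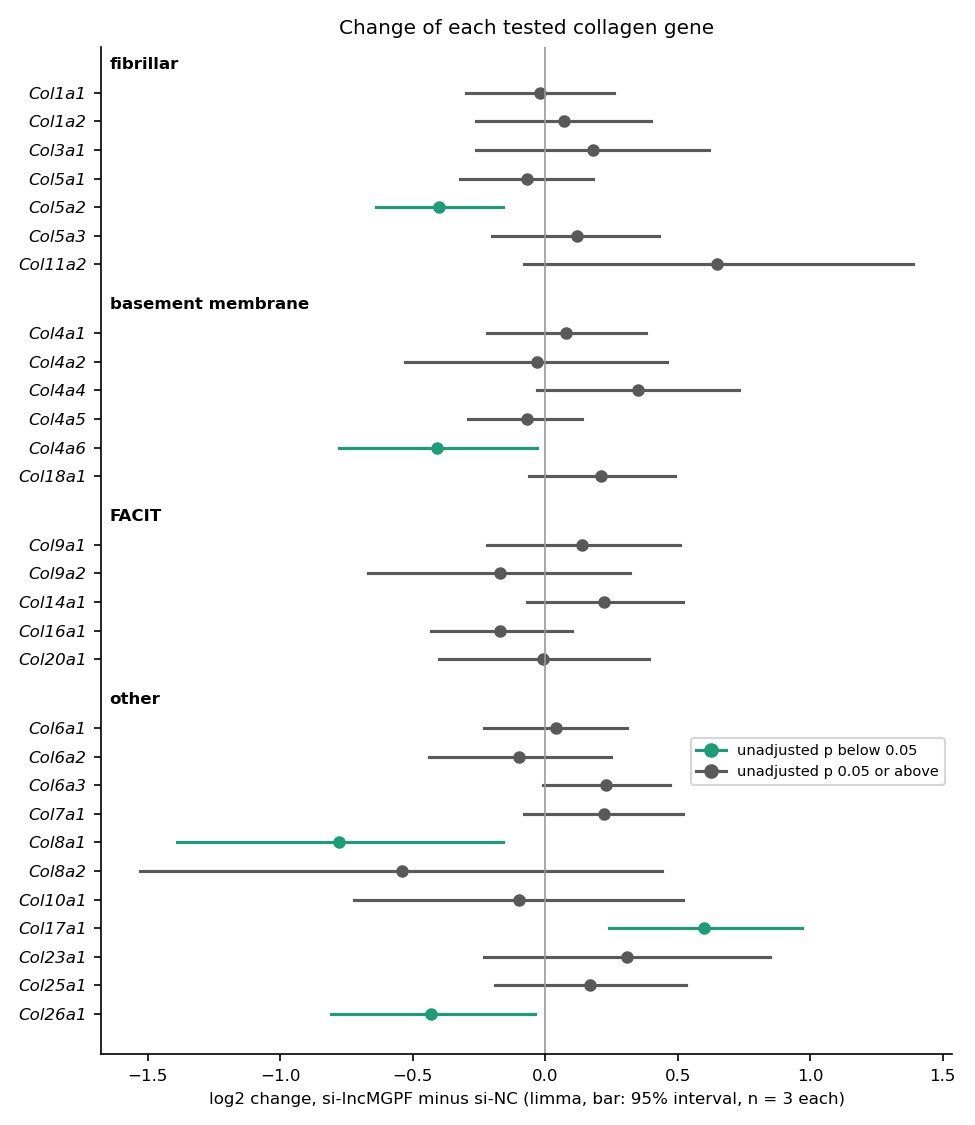
Log2 change of each tested collagen gene, si-lncMGPF minus si-NC (horizontal axis), with its 95% interval from limma (bars, n = 3 arrays each), by class. Col17a1 lies right of 0, and Col5a2, Col4a6, Col8a1 and Col26a1 lie left of 0 with intervals that exclude it, and the other 24 intervals include 0.

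The 14 collagen genes that were not tested were not well above background on all arrays of either group. They were the fibrillar Col2a1, Col11a1, Col24a1 and Col27a1, the basement membrane genes Col4a3 and Col15a1, the FACIT genes Col9a3, Col19a1 and Col22a1, and Col6a4, Col6a5, Col6a6, Col13a1 and Col28a1. Col24a1 was well above background on 1 array of each group, and the other 13 on no array. Col2a1 is the collagen of cartilage, Col13a1 encodes a membrane collagen of the neuromuscular junction, and Col22a1 encodes a collagen of the myotendinous junction. Of the 29 tested genes, 23 were well above background on all 6 arrays.

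Fibrillar collagens numbered 7 tested of 11 on the array, with a median log2 change of 0.07, and 0 passed the threshold. Values are given as log2 of the signal relative to the array's 75th percentile, so that 0 stands for that percentile, and they are not compared between genes because each has its own probe. Type I collagen, the main fibre of tendon, bone and skin, is made of the chains of Col1a1 and Col1a2. Col1a1 read 5.91, 6.11 and 6.06 on si-lncMGPF replicates 1, 2 and 3, against 5.86, 6.17 and 6.11 on si-NC replicates 1, 2 and 3. The si-lncMGPF values lay within the span of the si-NC values. The log2 change of Col1a1 was -0.02 (SE 0.12, 95% interval -0.30 to 0.26), a fold of 0.986. Col1a2 read 5.16, 5.52 and 5.58 on the si-lncMGPF arrays, against 5.22, 5.43 and 5.39 on the si-NC arrays. Its si-lncMGPF array of slide 1 was the lowest of all 6 and the slide 2 arrays were the highest, with a change of 0.07 (SE 0.14, 95% interval -0.26 to 0.40).

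The promoter window of Col1a2, from 250 bases before to 50 after the annotated start (RefSeq, GRCm38.p6, chr6:4505368-4505667, plus strand), is shown because the CCAAT box of this gene is a textbook site for the factor NF-Y, whose subunit genes are among the regulators measured here. Capitals mark every match to CCAAT or GGGCGG on either strand, so a match on the minus strand reads ATTGG or CCGCCC, and TATAAA has no match in the window.
Col1a2: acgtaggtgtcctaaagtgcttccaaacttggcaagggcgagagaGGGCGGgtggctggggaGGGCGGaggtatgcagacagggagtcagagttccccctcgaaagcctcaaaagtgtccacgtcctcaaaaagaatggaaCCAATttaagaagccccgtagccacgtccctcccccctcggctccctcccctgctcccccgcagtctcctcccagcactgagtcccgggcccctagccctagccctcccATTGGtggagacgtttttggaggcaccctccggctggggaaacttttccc
Such windows were found for 25 of the 29 tested collagen genes, 28 windows in all. TATAAA, the TATA box, was in 4 of these 28 windows (4 genes), and 13.6% of all 32851 mouse windows held it. CCAAT was in 11 of the 28 (11 genes), against 37.4% of all windows. GGGCGG, the GC box bound by Sp1, was in 18 of the 28 (17 genes), against 35.7% of all windows. Matches were counted on both strands and the motifs share no full match with each other. A match is a description of the letters and not a bound site.

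Col3a1, the gene of type III collagen, which accompanies type I in elastic tissues and in the sheaths of muscle, read 7.02, 7.41 and 7.63 on si-lncMGPF arrays, against 6.96, 7.38 and 7.17 on si-NC arrays. The groups overlapped, and the change of 0.18 (SE 0.18, 95% interval -0.26 to 0.62) was about the size of its standard error. Type V collagen sits inside type I fibrils and sets when they form and how thick they grow. Col5a1, one of its chains, read 4.32, 4.57 and 4.48 on si-lncMGPF arrays, against 4.42, 4.62 and 4.52 on si-NC arrays. These values overlapped, with a change of -0.07 (SE 0.11, 95% interval -0.32 to 0.18). Col5a2, which encodes another type V chain, read 0.73, 0.56 and 0.80 on si-lncMGPF arrays, against 1.03, 1.18 and 1.1 on si-NC arrays. All 3 si-lncMGPF arrays lay below all 3 si-NC arrays, which were all on slide 1. Its log2 change was -0.40 (SE 0.10, 95% interval -0.64 to -0.16, unadjusted p = 0.0057, adjusted p = 0.213), a fold of 0.756. Against the same si-NC arrays, the change was -0.37 for the slide 1 array and -0.42 for the slide 2 arrays. Without si-lncMGPF replicate 1 the adjusted p was 0.0478. Over the alternatives it spanned 0.00389 (array weights, where 52.2% of all genes passed) to 0.645. Col5a3, the remaining type V chain, had a change of 0.12 (SE 0.13). Col11a2, a chain of the cartilage collagen type XI, read -5.21, -4.92 and -4.06 on si-lncMGPF arrays, against -5.59, -5.51 and -5.05 on si-NC arrays. The groups overlapped, and 2 of the 3 si-lncMGPF arrays were well above background. The change of Col11a2 was 0.65 (SE 0.31, 95% interval -0.08 to 1.39, adjusted p = 0.352), with 0.17 within slide 1, and 0.11 after normexp background correction, a model-based alternative. The summed fibroblast markers given above were lower on every si-lncMGPF array than on every si-NC array, and their part in the values of the fibrillar genes was not tested. Of the 8 markers 0 passed the threshold, and their median change was -0.122. At an unadjusted p below 0.05, 3 were on the lower side (all genes 8.14%). These were Lum, which encodes the collagen-binding proteoglycan lumican (-0.54), the growth factor receptor gene Pdgfrb (-0.27) and the matrix protein gene Postn (-0.20). Fap, a fibroblast surface protease gene (0.25), was on the higher side (all genes 6.04%). The remaining tested markers were Dcn (-0.22), Pdgfra (0.11), Fbln1 (-0.04) and Ly6a (0.03).

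**Figure D2:**
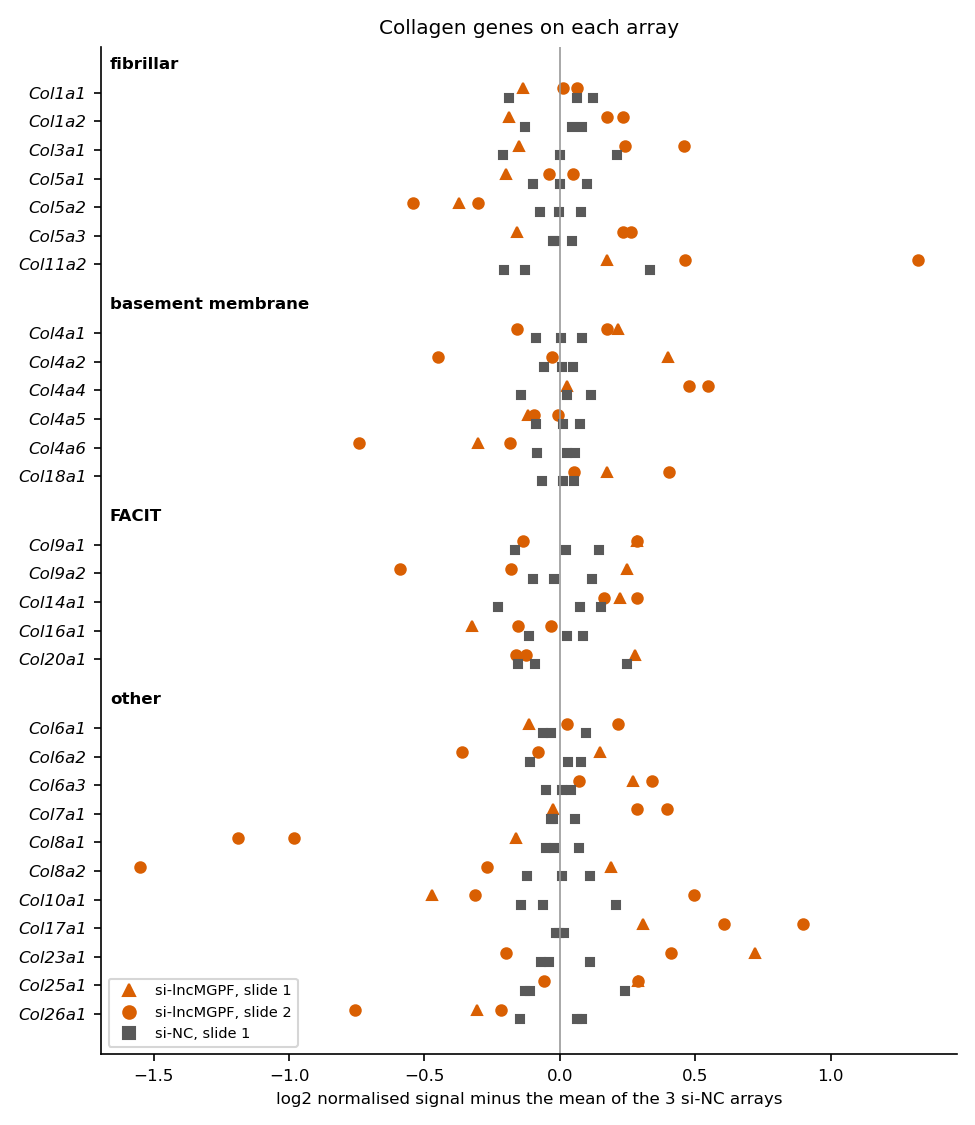
Log2 normalised signal of each tested collagen gene on each array, minus the mean of the 3 si-NC arrays (horizontal axis), for si-lncMGPF on slide 1 (triangles), si-lncMGPF on slide 2 (circles) and si-NC (squares). The si-lncMGPF arrays of Col5a2 all lie left of the si-NC arrays and those of Col17a1 all lie right, and the slide 2 arrays of Col8a1 lie farther from si-NC than its slide 1 array.

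Basement membrane collagens numbered 6 tested of 8, with a median log2 change of 0.023, and 0 passed the threshold. Col4a1 and Col4a2 encode the chains of the type IV molecule found in nearly every basement membrane. Col4a1 read 0.66, 0.29 and 0.62 on si-lncMGPF arrays, against 0.53, 0.36 and 0.45 on si-NC arrays. Its groups overlapped, and the change was 0.08 (SE 0.12, 95% interval -0.22 to 0.38). Col4a2 read -0.12, -0.97 and -0.55 on si-lncMGPF arrays, against -0.47, -0.58 and -0.51 on si-NC arrays. The si-lncMGPF arrays spread to both sides of the tight si-NC arrays, with a standard deviation of 0.43 in si-lncMGPF and 0.06 in si-NC. Its change was -0.03 (SE 0.21, 95% interval -0.53 to 0.46), with 0.39 within slide 1 and -0.25 for the slide 2 arrays.

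These genes lie head to head, and their annotated starts are 21 bases apart on opposite strands, so their windows are shown together as a pair whose transcripts begin in the same stretch of DNA. The Col4a1 window is chr8:11312777-11313076 on the minus strand and the Col4a2 window is chr8:11312555-11312854 on the plus strand (RefSeq, GRCm38.p6). Capitals mark the 78 bases that both windows hold, read on opposite strands.
Col4a1: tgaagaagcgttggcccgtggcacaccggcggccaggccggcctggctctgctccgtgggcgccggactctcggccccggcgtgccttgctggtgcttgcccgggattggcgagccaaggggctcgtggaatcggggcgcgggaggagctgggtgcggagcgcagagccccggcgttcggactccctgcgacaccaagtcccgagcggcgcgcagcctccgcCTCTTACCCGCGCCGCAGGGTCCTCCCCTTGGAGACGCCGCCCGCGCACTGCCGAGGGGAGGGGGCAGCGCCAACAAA
Col4a2: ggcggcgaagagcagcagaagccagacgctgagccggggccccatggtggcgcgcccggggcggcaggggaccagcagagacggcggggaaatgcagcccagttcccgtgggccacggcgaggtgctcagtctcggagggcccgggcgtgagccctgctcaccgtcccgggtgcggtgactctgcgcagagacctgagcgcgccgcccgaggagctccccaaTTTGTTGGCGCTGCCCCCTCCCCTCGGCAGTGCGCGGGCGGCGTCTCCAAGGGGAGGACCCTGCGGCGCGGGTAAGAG
The shared stretch was 73.1% G or C and held 1 match to GGGCGG and no match to TATAAA or CCAAT. On slide 1 both genes were above the si-NC range on the si-lncMGPF array. Of the slide 2 arrays, replicate 2 was below that range for both genes, and replicate 3 was above it for Col4a1 and within it for Col4a2.

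Col4a5 and Col4a6 encode chains of the type IV molecule of smooth muscle and other basement membranes, and they too lie head to head, with starts 1343 bases apart. Col4a5 read 1.12, 1.14 and 1.23 on si-lncMGPF arrays, against 1.15, 1.31 and 1.25 on si-NC arrays. The groups overlapped, with a change of -0.07 (SE 0.09, 95% interval -0.29 to 0.14). Col4a6 read -0.98, -0.86 and -1.42 on si-lncMGPF arrays, against -0.76, -0.65 and -0.62 on si-NC arrays. All si-lncMGPF arrays lay below all si-NC arrays on this probe. Its change was -0.41 (SE 0.16, 95% interval -0.78 to -0.03, unadjusted p = 0.0363, adjusted p = 0.286), with -0.30 within slide 1, but a second probe went the other way, as given below. Col4a4, a chain of the kidney filter's basement membrane, had a change of 0.35 (SE 0.16, 95% interval -0.03 to 0.73), with 0.03 within slide 1 and 0.51 for the slide 2 arrays. Col18a1, a basement membrane collagen that carries heparan sulfate and yields the fragment endostatin, read 3.28, 3.51 and 3.16 on si-lncMGPF arrays, against 3.04, 3.16 and 3.12 on si-NC arrays. The groups did not overlap before rounding, with the lowest si-lncMGPF array next to the highest si-NC array. The change of Col18a1 was 0.21 (SE 0.11, 95% interval -0.06 to 0.49, adjusted p = 0.398).

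FACIT collagens numbered 5 tested of 8, with a median log2 change of -0.006. On the probes that stood for them 0 passed the threshold, and 0 had an unadjusted p below 0.05. Col16a1, a FACIT collagen of many connective tissues, read 1.58, 1.87 and 1.75 on si-lncMGPF arrays, against 1.79, 1.99 and 1.93 on si-NC arrays. The si-lncMGPF array of slide 1 was the lowest, and the groups overlapped. Its change was -0.17 (SE 0.11, 95% interval -0.43 to 0.10). Col9a2, a chain of the cartilage FACIT type IX, read -3.49, -4.33 and -3.92 on si-lncMGPF arrays, against -3.84, -3.62 and -3.76 on si-NC arrays. The si-lncMGPF arrays were above the si-NC range on slide 1 and below it on slide 2, and the change was -0.17 (SE 0.21, 95% interval -0.67 to 0.32). Col9a1, its partner chain, had a change of 0.14 (SE 0.15), and Col20a1 had -0.01 (SE 0.16). Col14a1, a FACIT collagen of tendon and the muscle sheath, had 0.22 (SE 0.12, adjusted p = 0.4) on the probe with the higher signal.

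The last class numbered 11 tested of 16, with a median log2 change of 0.043, and 0 passed the threshold. Type VI collagen is assembled from the chains of Col6a1, Col6a2 and Col6a3, and mutations of any of these chains cause muscle disease in humans. Col6a1 read 4.50, 4.64 and 4.83 on si-lncMGPF arrays, against 4.55, 4.71 and 4.58 on si-NC arrays. Its groups overlapped, with a change of 0.04 (SE 0.11, 95% interval -0.23 to 0.31). Col6a2 read -1.03, -1.54 and -1.26 on si-lncMGPF arrays, against -1.29, -1.1 and -1.15 on si-NC arrays. These groups overlapped as well, with a change of -0.10 (SE 0.15, 95% interval -0.44 to 0.25). Col6a3 read 2.93, 2.73 and 3.0 on si-lncMGPF arrays, against 2.70, 2.61 and 2.67 on si-NC arrays. All si-lncMGPF arrays lay above all si-NC arrays for Col6a3. Its change was 0.23 (SE 0.10, 95% interval -0.01 to 0.47, adjusted p = 0.331), with 0.27 within slide 1 and 0.21 for the slide 2 arrays.

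Col8a1 encodes a chain of the short-chain network collagen of vessel walls and of the cornea's inner membrane. It read 1.42, 0.60 and 0.39 on si-lncMGPF arrays, against 1.65, 1.56 and 1.53 on si-NC arrays. Every si-lncMGPF array lay below every si-NC array, by little on slide 1 and by far more on slide 2. The log2 change of Col8a1 was -0.78 (SE 0.26, 95% interval -1.39 to -0.16, unadjusted p = 0.0205, adjusted p = 0.254), a fold of 0.584, with -0.16 within slide 1 and -1.09 for the slide 2 arrays. Without si-lncMGPF replicate 1 its adjusted p was 0.00349. Over the alternatives its adjusted p spanned 0.000506 (array weights, where 52.2% of all genes passed) to 0.645. Col8a2, its partner chain, read -5.13, -5.59 and -6.87 on si-lncMGPF arrays, against -5.44, -5.31 and -5.21 on si-NC arrays. Only 1 si-lncMGPF array was well above background for Col8a2, and the groups overlapped. Col8a2 thus reached the test through the si-NC arrays alone, and its change is a description only. That change was -0.54 (SE 0.41, 95% interval -1.53 to 0.44), with 0.19 within slide 1 and -0.91 for the slide 2 arrays.

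Col17a1 encodes a membrane-spanning collagen best known from the hemidesmosomes of skin. It read -1.46, -0.87 and -1.16 on si-lncMGPF arrays, against -1.75, -1.77 and -1.78 on si-NC arrays. All si-lncMGPF arrays lay above the si-NC arrays, which differed from each other by little. The log2 change of Col17a1 was 0.60 (SE 0.15, 95% interval 0.24 to 0.97, unadjusted p = 0.00616, adjusted p = 0.214), a fold of 1.52, with 0.31 within slide 1 and 0.75 for the slide 2 arrays. Without si-lncMGPF replicate 1 its adjusted p was 0.0133. Over the alternatives its adjusted p spanned 0.000575 (array weights, where 52.2% of all genes passed) to 0.645. Col26a1, which encodes a collagen with an EMI domain, read -4.76, -5.21 and -4.67 on si-lncMGPF arrays, against -4.60, -4.37 and -4.39 on si-NC arrays. The groups did not overlap, and 1 of the si-lncMGPF arrays was well above background. Its change of -0.43 (SE 0.16, 95% interval -0.81 to -0.04, adjusted p = 0.281) is therefore a description only, and it was -0.12 after normexp background correction.

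The promoter windows of Col8a1 and Col17a1 are shown because these 2 genes had the largest changes among collagen genes above background on all arrays, in opposite directions. They are chr16:57754688-57754987 and chr19:47691993-47692292, both on the minus strand (RefSeq, GRCm38.p6). Capitals mark matches to the TATA box, the CCAAT box and the GC box, as spelled out above, on either strand.
Col8a1: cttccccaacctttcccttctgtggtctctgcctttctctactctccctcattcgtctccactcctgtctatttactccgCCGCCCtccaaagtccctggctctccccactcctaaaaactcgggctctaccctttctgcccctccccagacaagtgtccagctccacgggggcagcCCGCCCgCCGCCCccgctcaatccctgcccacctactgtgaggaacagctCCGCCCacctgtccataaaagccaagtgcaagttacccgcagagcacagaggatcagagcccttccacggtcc
Col17a1: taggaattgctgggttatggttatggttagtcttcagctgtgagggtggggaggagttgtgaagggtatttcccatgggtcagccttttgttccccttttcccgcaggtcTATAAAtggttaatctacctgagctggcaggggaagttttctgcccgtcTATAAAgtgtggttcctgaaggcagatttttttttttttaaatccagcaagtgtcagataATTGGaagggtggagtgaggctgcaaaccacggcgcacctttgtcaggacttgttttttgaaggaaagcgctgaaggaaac
The Col8a1 window was 60.3% G or C and held GC boxes without the other motifs. That of Col17a1 was 46.3% G or C and held TATAAA and CCAAT without a GC box. Nothing follows from these letters about the factors that act there.

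The other members of this class were given by their changes. Col7a1, the anchoring fibril collagen of skin, had a change of 0.22 (SE 0.13, 95% interval -0.08 to 0.52), with -0.02 within slide 1 and 0.34 for the slide 2 arrays. Col23a1 and Col25a1 encode membrane-spanning collagens, the product of Col25a1 being needed in mice for motor nerves to reach muscle. Col23a1 had a change of 0.31 (SE 0.23, 95% interval -0.23 to 0.85), with 0.72 within slide 1. Col25a1 had 0.17 (SE 0.15, 95% interval -0.19 to 0.53). Col10a1, the collagen of hypertrophic cartilage, was well above background on all 3 si-NC arrays and on no si-lncMGPF array, and its measured means of -5.56 in si-lncMGPF and -5.46 in si-NC allowed no fold.

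The slides were then set side by side for all 29 genes. On slide 1 the si-lncMGPF array lay outside the range of the 3 si-NC arrays for 24 genes, 13 above and 11 below, and over all tested genes this share was 78.5%. The sign of the slide 1 difference and of the slide 2 difference, both taken from the same si-NC arrays, was the same for 16 of 29 collagen genes, against 51.7% of all genes. The median difference was 0.032 on slide 1 and 0.073 on slide 2, against -0.073 and 0.057 over all genes. The fibrillar genes had a median of -0.153 on slide 1 and 0.199 on slide 2, and 2 of 7 had the same sign on both. Among basement membrane genes 5 of 6 had the same sign, with medians of 0.105 on slide 1 and -0.019 on slide 2. FACIT genes had medians of 0.246 and -0.09, with 3 of 5 of the same sign, and the last class had 0.152 and 0.109, with 6 of 11. Blocking on slide estimates the slide 1 difference and so rests on 1 si-lncMGPF array. That fit called 0 collagen genes (limma, smallest adjusted p = 0.21), with 0.0631% of all genes called. At an unadjusted p below 0.05 it had 3 collagen genes, against 22.9% of all genes. These 3 were Col23a1, Col5a2 and Col16a1. On the probe with the highest signal of each gene, Col5a2 was below this level in both fits.

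**Figure D3:**
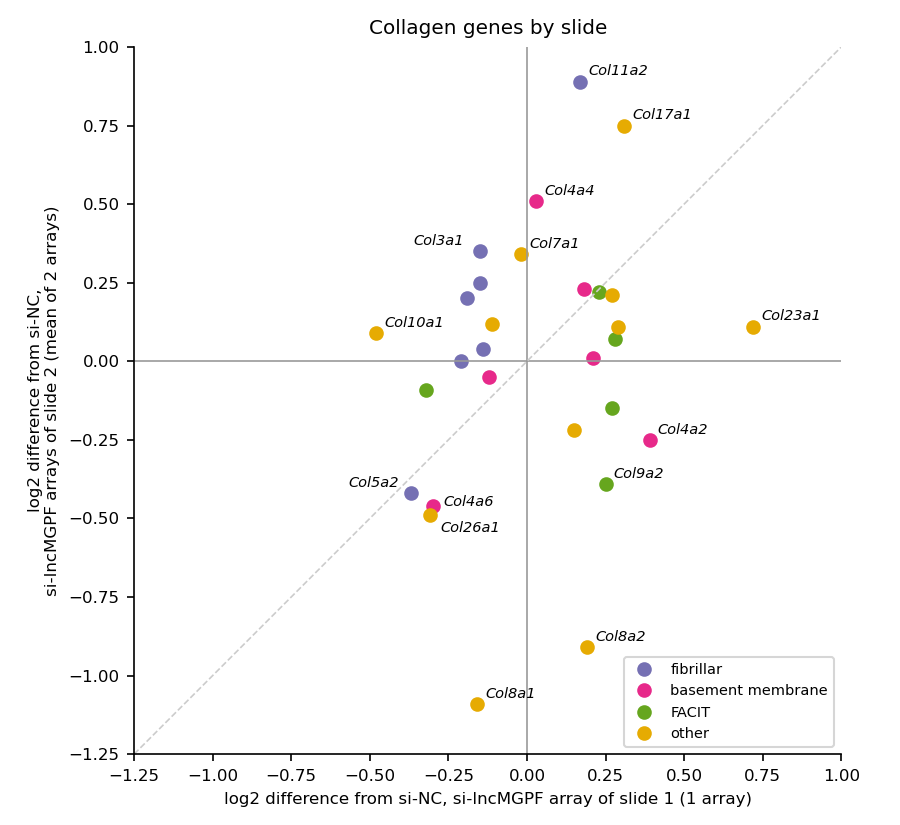
Log2 difference of each tested collagen gene from the mean of the 3 si-NC arrays, for the si-lncMGPF array of slide 1 (horizontal axis) and for the mean of the si-lncMGPF arrays of slide 2 (vertical axis), coloured by class, with a dashed line where both are equal. Col5a2, Col4a6 and Col26a1 lie near the line on the lower left, Col8a1 and Col8a2 lie far below it, and 16 of 29 genes have the same sign on both axes.

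For 6 collagen genes more than 1 probe was tested, 36 collagen probes in all. At an unadjusted p below 0.05 there were 9 collagen probes, against 15.8% of all probes, and 0 passed the threshold, against 0.105% of all probes. The second probes are named after their values were seen. Col14a1 was measured by probe A_55_P2124736 at -5.32, -4.70 and -5.13 on si-lncMGPF arrays, against -4.07, -3.78 and -4.17 on si-NC arrays. On this probe every si-lncMGPF array lay below every si-NC array, with a log2 change of -1.04 (SE 0.19, 95% interval -1.49 to -0.60, adjusted p = 0.141) and -1.31 within slide 1. The other Col14a1 probe read -4.00, -4.06 and -3.94 on si-lncMGPF arrays, against -4.45, -4.07 and -4.15 on si-NC arrays, with the change of 0.22 given above. The first of these probes was well above background on 2 of 3 si-lncMGPF arrays and reached the test through the si-NC arrays alone, so its values are a description. After normexp the change was -0.35 on this first probe and 0.03 on the other Col14a1 probe. Col4a6 was measured by probe A_52_P516409 at -3.72, -3.56 and -3.51 on si-lncMGPF arrays, against -4.12, -3.94 and -4.06 on si-NC arrays. There every si-lncMGPF array lay above every si-NC array, opposite to the first probe, with a change of 0.45 (SE 0.10, 95% interval 0.21 to 0.68, unadjusted p = 0.00323, adjusted p = 0.191) against -0.41. The directions given above for Col14a1 and Col4a6 therefore hold for single probes and not for the genes.

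Col4a4 also had probes of opposite sign, with a change of -0.21 on probe A_55_P2143837 (SE 0.14, 95% interval -0.55 to 0.14), which was well above background on 1 si-lncMGPF array, against 0.35 on the first probe. In 2 genes the probes agreed in sign. Col16a1 had -0.22 on probe A_55_P2124751 (SE 0.09, 95% interval -0.42 to -0.01, adjusted p = 0.304), beside -0.17. Col18a1 had 0.33 on probe A_55_P2124791 (SE 0.11, 95% interval 0.07 to 0.58, adjusted p = 0.252), beside 0.21. Col23a1 had 0.20 on probe A_55_P2086978 and -0.03 on probe A_51_P457557, beside 0.31.

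**Figure D4:**
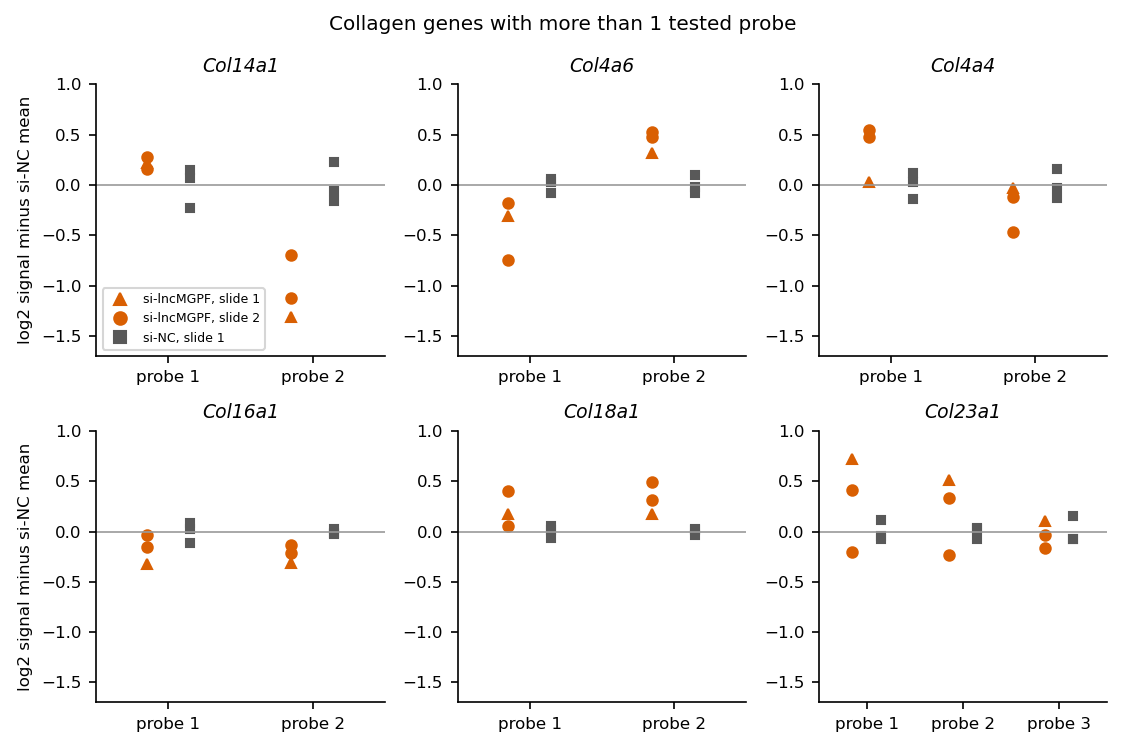
Log2 normalised signal on each array minus the mean of the 3 si-NC arrays (vertical axis), for each tested probe of the 6 collagen genes with more than 1, ordered by signal, with si-lncMGPF on slide 1 (triangles), si-lncMGPF on slide 2 (circles) and si-NC (squares). The si-lncMGPF arrays lie on opposite sides of si-NC for the probes of Col14a1 and of Col4a6. For the probes of Col16a1 and of Col18a1 the si-lncMGPF means lie on the same side, and on the first Col16a1 probe the groups overlap.

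Chains of 1 collagen type were compared by the difference of their log2 changes, and so was Col3a1 with Col5a2, which belong to different molecules. There were 8 pairs, each with an exact two-sided permutation test over the 6 arrays, whose smallest possible p with 3 against 3 is 0.1. Col1a1 minus Col1a2 was -0.09 (exact permutation p = 0.4) and Col4a1 minus Col4a2 was 0.11 (exact permutation p = 0.4). For these pairs the groups overlapped. Col5a1 minus Col5a2 was 0.34, Col3a1 minus Col5a2 was 0.59 and Col4a5 minus Col4a6 was 0.33, each with an exact permutation p of 0.1 (0.267 after Benjamini-Hochberg adjustment over the 8 pairs). In these 3 pairs the ratio of the chains was higher on every si-lncMGPF array than on every si-NC array, and the share over other gene pairs was not computed. Col5a1 minus Col5a2 and Col3a1 minus Col5a2 both rest on Col5a2, whose own groups did not overlap, as for 22.3% of all single genes. Col4a5 minus Col4a6 rests on a gene whose probes disagree: on the mean of a gene's probes it was -0.09. Within slide 1 the 3 differences were 0.17, 0.22 and 0.18. The sign turned within slide 1 for Col1a1 minus Col1a2 (0.05), Col4a1 minus Col4a2 (-0.18) and Col6a1 minus Col6a2 (-0.27). For type VI, Col6a1 minus Col6a2 was 0.14 (exact permutation p = 0.5), Col6a1 minus Col6a3 was -0.19 (exact permutation p = 0.2) and Col6a2 minus Col6a3 was -0.33 (exact permutation p = 0.2).

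Genes that make, process, bind and regulate collagens were counted from 4 lists, and none of their members passed the threshold. Of the biosynthesis and folding genes 24 of 26 were tested, 12 with a positive and 12 with a negative change (median 0.008). At an unadjusted p below 0.05 there were 4, all on the higher side, where all tested genes had 6.04%. Kdelr2, a receptor that returns chaperones to the endoplasmic reticulum, read 0.40, 0.45 and 0.58 on si-lncMGPF arrays, against 0.23, 0.04 and 0.18 on si-NC arrays, with a change of 0.32 (SE 0.10, adjusted p = 0.236). Crtap, part of the prolyl 3-hydroxylase complex, had a change of 0.27 (SE 0.10, adjusted p = 0.274). Plod2, a lysyl hydroxylase that prepares crosslinks, had 0.25 (SE 0.09, adjusted p = 0.278), of similar size on slide 1 (0.24) and slide 2 (0.25). P4hb, a subunit of the prolyl 4-hydroxylase and a disulfide isomerase, had 0.24. The groups did not overlap for these 4 genes, higher in si-lncMGPF, nor for Sec24d, a coat protein gene of secretory vesicles, lower in si-lncMGPF (-0.12), where 22.3% of all genes had no overlap. Serpinh1, the collagen chaperone HSP47, had -0.07 (SE 0.12, 95% interval -0.36 to 0.23), and P4ha1, the catalytic prolyl 4-hydroxylase subunit, 0.02 (SE 0.08, 95% interval -0.17 to 0.22).

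Of the processing and crosslinking genes 11 of 13 were tested, 3 with a positive and 8 with a negative change (median -0.023). Loxl1, a lysyl oxidase best known from elastic fibres, read 3.13, 3.01 and 3.19 on si-lncMGPF arrays, against 2.90, 2.80 and 2.83 on si-NC arrays. Its groups did not overlap, and the change was 0.26 (SE 0.09, unadjusted p = 0.025, adjusted p = 0.264), with 0.28 within slide 1 and 0.25 for the slide 2 arrays. Over all tested genes, 9.62% lay higher without overlap, and 6.04% were higher at an unadjusted p below 0.05. Lox, the main collagen crosslinking oxidase, had 0.06 (SE 0.12, 95% interval -0.23 to 0.35). The procollagen proteases Adamts2 and Bmp1, which trim the ends of the chains, had -0.15 (SE 0.09) and -0.17 (SE 0.11). On the mean of its probes Adamts2 had -0.44.

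Of the receptors and uptake genes 8 of 12 were tested, 2 with a positive and 6 with a negative change (median -0.045). Itga11, the integrin chain that binds fibrillar collagen on mesenchymal cells, read -3.30, -3.71 and -3.44 on si-lncMGPF arrays, against -3.03, -2.73 and -2.91 on si-NC arrays. All si-lncMGPF arrays lay below all si-NC arrays, and the change was -0.59 (SE 0.14, 95% interval -0.92 to -0.27, unadjusted p = 0.00385, adjusted p = 0.197), with -0.41 within slide 1. Adgrg1, an adhesion receptor that binds type III collagen, read 1.60, 1.69 and 1.58 on si-lncMGPF arrays, against 1.91, 1.93 and 1.90 on si-NC arrays. Its groups did not overlap either, with a change of -0.29 (SE 0.08, 95% interval -0.48 to -0.09, adjusted p = 0.228) and -0.31 within slide 1. Over all tested genes, 12.6% lay lower without overlap, and 8.14% were lower at an unadjusted p below 0.05. Ddr2, a receptor kinase for fibrillar collagen, had 0.37 (SE 0.22, 95% interval -0.15 to 0.90), with 0.72 within slide 1 and 0.20 for the slide 2 arrays. Leaving out single arrays gave 0.20 (without si-lncMGPF replicate 1) to 0.61 (without si-lncMGPF replicate 2), and the mean of its probes 0.22.

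Of the regulators of fibrillar collagen transcription 14 of 18 were tested, 11 with a positive and 3 with a negative change (median 0.032, with -0.1 on slide 1 and 0.122 on slide 2), and 0 had an unadjusted p below 0.05. Nfyb, a subunit of NF-Y, had 0.27 (SE 0.12, 95% interval -0.02 to 0.56, adjusted p = 0.337). The other subunit genes were Nfya with 0.01 (SE 0.10) and Nfyc with 0.05 (SE 0.16), and Nfyc had -0.29 within slide 1. The factor genes Ets1 and Ybx1 had 0.24 (SE 0.14) and 0.23 (SE 0.15), and Ybx1 had -0.09 within slide 1.

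**Figure D5:**
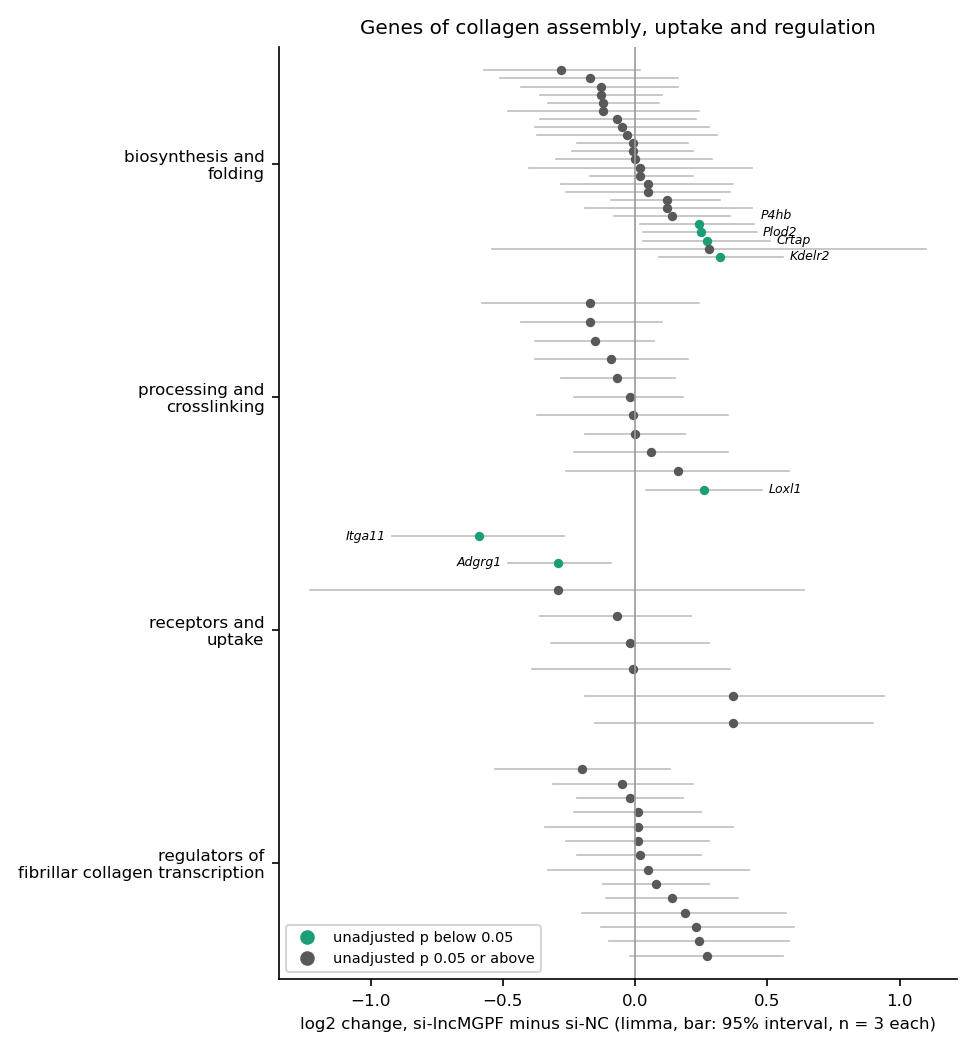
Log2 change, si-lncMGPF minus si-NC (horizontal axis), with its 95% interval from limma (bars, n = 3 arrays each), of each tested gene of the 4 lists around collagen. Intervals exclude 0 for Kdelr2, Crtap, Plod2, P4hb and Loxl1 on the right and for Itga11 and Adgrg1 on the left, and include it for the other genes.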

How the data were processed

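Total RNA of 6 C2C12 samples was labelled with Cy3 and hybridised to Agilent arrays, per the labels. Intensity values in the deposited scanner tables are those that Feature Extraction 11.0.1.1 had background-subtracted, per the file headers; how the authors tested them is not given in the sources used here. In the authors' deposited series table the intensity values are identical at 44397 of 44397 spots of every array, with medians of 64.44, 36.7 and 33.69 on si-lncMGPF replicates 1 to 3 and 59.73, 46.5 and 50.88 on si-NC replicates 1 to 3.

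Values here are log2 of each spot's processed signal relative to the 75th percentile of the same array. Outlier spots (117 to 134 per array) were then dropped, and the log2 values of a probe's remaining spots were averaged. No spot was saturated. A shift shared by most transcripts is invisible on this scale. Testing required a probe to be well above background on all arrays of either group, which left 24657 of 39429 probes. Accessions were matched to symbols in a RefSeq table (GRCm38.p6), used for the names of probes and not for their positions because the array's build differs, and 27234 probes were named. The table's 44 collagen genes included 1, Col12a1, that was matched to no probe. Promoter windows, their coordinates and transcript starts come from RefSeq on GRCm38.p6. Each gene is represented by its brightest tested probe. On slide 2, 56.91% and 57.28% of probes were well above background, against 64.11% to 65.26% on slide 1, so dim collagens are measured less well on slide 2.

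The groups were compared in R 4.3.3 by limma 3.58.1 (lmFit, then eBayes, without covariates). P-values were adjusted by the Benjamini-Hochberg method over every probe tested, with calls at an adjusted p below 0.05. The test was checked on simulated data with independent noise on each array and no slide effect. That check therefore says nothing about the part of the slides. Slides were identified by a shared scan identifier. The members, classes and gene lists were chosen with earlier results of these data known. Values on every array are given for the 2 members of each class with the highest signal, members with an unadjusted p below 0.05 or a log2 change of at least 0.5 in size, and the partner chains of types I, III, IV, V and VI; of each list the 3 genes with the smallest p and Serpinh1, Lox and P4ha1 were named. P4hb, Sec24d, Nfya, Nfyc, the markers, the second probes and the other members were named after their values were seen. Alternatives were quantile normalization, median centring, normexp (offset 50), the filter on dim probes, the variance prior, array weights, slide as a block, as a random block and slide 1 alone, the replicate number as a block, the series table, averaging the probes of each gene, and dropping single arrays. Normexp ran on median spot signals. Figures were drawn with matplotlib 3.10.9.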

Additional observations from a re-analysis of the deposited data

How the results depend on the processing

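With all arrays limma called 26 probes (7 higher, 19 lower), among them 0 of 36 collagen probes. The count over all probes was 6 after quantile normalization, 10 with slide as a block, 1 with the slide 1 arrays alone, 0 without a filter on dim probes (5277 at an unadjusted p below 0.05) and 13397 with array weights, and it spanned 0 to 4117 when single arrays were left out. Array weights ran from 0.109 (si-lncMGPF replicate 1) to 9.98 (si-NC replicate 3), and gave 22 collagen probes past the threshold where 54.3% of all probes passed, and 16 collagen genes where 52.2% of genes did. Leaving out single arrays gave 0 to 8 collagen probes. The 8 came without si-lncMGPF replicate 1, when slide and siRNA coincide and 16.7% of all probes passed; every other alternative but array weights gave 0, with 5 to 12 at an unadjusted p below 0.05. The same-numbered samples of the groups had deviations from their group means that correlated at 0.18, 0.32 and -0.06, and unlike-numbered samples at -0.29 to 0.06. With 3 arrays per group and the si-lncMGPF arrays split over the slides, these values cannot decide whether the numbers pair the samples. With the replicate number as a block limma called 0 probes in all (4431 at an unadjusted p below 0.05) and 0 collagen probes (10 at that level). The median log2 change of collagen genes, 0.043 as reported, was -0.014 after normexp and -0.005 after quantile normalization, and spanned -0.010 to 0.091 without single arrays. Of the 29 collagen genes 13 kept their direction under every alternative run for them (Col11a2 and Col26a1, among the 13, were not above background on all 6 arrays and lack that one) and 16 changed it under at least 1; the cause was not tested. With the slide 1 arrays alone, and equally with slide as a block, signs turned for Col1a2 (-0.19), Col3a1 (-0.15), Col4a2 (0.39), Col5a3 (-0.15), Col6a1 (-0.11), Col6a2 (0.15), Col7a1 (-0.02), Col8a2 (0.19), Col9a2 (0.25), Col20a1 (0.27), Col23a1 probe A_51_P457557 (0.11), P4ha1 (-0.03) and Ybx1 (-0.09). With slide as a random block (correlation 0.644) they turned for Col1a2 (-0.11), Col3a1 (-0.05), Col4a2 (0.27), Col5a3 (-0.07), Col6a1 (-0.07), Col6a2 (0.08), Col9a2 (0.12), Col20a1 (0.19), Col23a1 probe A_51_P457557 (0.07) and P4ha1 (-0.01). After normexp they turned for Col1a2 (-0.04), Col3a1 (0.00), Col4a2 (0.03), Col9a1 (-0.01) and P4ha1 (-0.02), after quantile normalization for Col3a1 (-0.02) and after median centring for Col20a1 (0.00). The mean of a gene's probes gave -0.41 for Col14a1, 0.02 for Col4a6 and -0.05 for P4ha1, and array weights gave 0.49 for Col10a1, 0.01 for Col23a1 probe A_51_P457557 and 0.05 for Serpinh1. Leaving out single arrays spanned 0 for Col10a1 (-0.40 to 0.09), Col1a1 (-0.11 to 0.04), Col1a2 (-0.01 to 0.20), Col20a1 (-0.15 to 0.12), Col23a1 probe A_51_P457557 (-0.10 to 0.04), Col4a2 (-0.25 to 0.18), Col5a1 (-0.13 to 0.00), Col6a1 (-0.04 to 0.12), Col6a2 (-0.22 to 0.03), Col9a2 (-0.39 to 0.03), Lox (-0.03 to 0.16) and Serpinh1 (-0.14 to 0.04). The number of arrays limits the precision, and signal close to background limits it for Col9a1, Col10a1, Col11a2, Col8a2, Col20a1 and Col26a1, which were not above background on every array.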
